A study of Mus musculus with 4 samples.

Results

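Collagens and other dermal matrix genes were followed in mouse skin, skin wounds and buccal mucosa by Xenium, an in situ method that decodes single RNA molecules within tissue sections. The genes were *Col1a1*, *Col5a1*, *Col6a1*, *Col14a1*, *Lum*, *Fn1*, *Tnxb* and *Postn*, 8 of the 328 genes on the panel. Transcripts were counted per cell where their decoding score reached 20. Levels are given as CPM, the gene's transcripts per 1000000 transcripts of all panel genes in the same cells of the same section, and levels of different genes were not set against each other.

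Fibroblasts build the dermis and the lamina propria by secreting collagens, proteoglycans and glycoproteins that assemble outside the cell. *Col1a1* encodes a chain of type I collagen, the main fibrillar collagen of dermis, and type V collagen from *Col5a1* starts and limits the width of its fibrils. Lumican and tenascin-X, the products of *Lum* and *Tnxb*, and the fibril-associated collagen encoded by *Col14a1* bind to fibrils and affect their spacing. Type VI collagen from *Col6a1* forms beaded filaments around cells, fibronectin from *Fn1* is part of the provisional matrix of wounds, and periostin from *Postn* is a matricellular protein known from wounds and from tissue under epithelium.

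The mice carried TRE-Pitx1 and Krt5-rtTA, a Tet-On system in which the *Krt5* promoter drives the transactivator in basal keratinocytes, so that doxycycline switches on *Pitx1* there and not in fibroblasts. Littermates on normal chow were Control and those on doxycycline chow were PITX1+. Sections of 5 µm from fixed, paraffin-embedded tissue lay on 4 slides, with unwounded male dorsal skin, unwounded female dorsal skin, male dorsal skin on post-operative day 4 (POD4) after wounding, and unwounded buccal mucosa from untreated males and females. The labels name both conditions for each skin slide and none for a single section. Condition was therefore taken from a section's place on its slide, which gave 3 Control sections (1 and 2 female, 3 male), 4 PITX1+ sections (1 and 2 female, 3 and 4 male), 1 Control wound, 2 PITX1+ wounds and 7 buccal sections. One wound per mouse was cut at its midline for embedding. These numbers of sections equal the numbers of control skins, PITX1+ mice, buccal mucosae and wounds in the study's legends, so sections were taken as separate animals, although no label ties a section to an animal. Slide and sex are one variable, as are slide and wounding and slide and tissue, and these cannot be told apart.

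*Pitx1* itself checked these places. In keratinocyte-like cells it stood at 55.3, 56.3 and 13.8 CPM in the Control sections and at 1089 and 861 CPM in the male PITX1+ sections, but at only 46.5 and 79.4 CPM in the female sections placed as PITX1+. The Control wound had 54.0 CPM and the PITX1+ wounds 701.6 and 383.3 CPM. The female pair thus did not show raised *Pitx1*. The number of kept cells separated the places on both slides the same way. The female sections placed as PITX1+ had 57231 and 75268 kept cells against 17335 and 11778, and the male ones 38248 and 28005 against 12684. A number of cells does not measure *Pitx1*, so the condition of the female sections rests on their place alone. PITX1+ means placed as such throughout. Fits between conditions over all fibroblast-like cells and over all cells are also given from the male slide alone. Values and fits by cluster, values by distance and tests of condition on place pool both slides.

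Of 426404 cells kept, 103134 were fibroblast-like, named from markers that excluded all 8 matrix genes. *Pdgfra*, a receptor that marks fibroblasts, was found in 42.8% of them and in 7.54% of other cells. The largest cluster among them, 29531 cells led by the immunoglobulin gene *Igkc*, was shallow, with a median of 22 transcripts per cell. Depth moved with condition, since the median per fibroblast-like cell was 24 to 27 transcripts in Control skin, 26 to 70 in PITX1+ skin, 61 to 67 in wounds and 26 to 93 in buccal mucosa. Buccal sections 3 and 6 stood apart. Section 3 held 11 keratinocyte-like and 79 sebaceous-like cells, and 2651 of the 5979 cells of section 6 were salivary-like.

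Fibroblast-like cells held 60.7% ± 7.57 (SD, n = 14 unwounded sections) of the transcripts of the 8 genes on average, and *Postn*, *Col14a1* and *Fn1* departed from this in particular places. In Control skin, fibroblast-like cells held 28.4, 14.6 and 39.4% of *Postn* transcripts, while keratinocyte-like cells held 58.9, 74.7 and 39.3%. Keratinocyte-like cells thus held more *Postn* than fibroblast-like cells in Control sections 1 and 2, and the shares in section 3 were almost equal. In PITX1+ skin fibroblast-like cells held more in every section, with 50.02 to 71.5% of *Postn* in fibroblast-like and 11.4 to 29.6% in keratinocyte-like cells. The *Postn* level of keratinocyte-like cells was 5012, 2421 and 7497 CPM in Control sections against 1235, 1637, 1142 and 2219 CPM in PITX1+ sections, without overlap. Per keratinocyte-like cell the groups overlapped, at 0.298, 0.131 and 0.258 *Postn* transcripts in Control and 0.119, 0.160, 0.0958 and 0.247 in PITX1+ sections. The keratinocyte clusters led by *Fcgbp* and *Wfdc3* held 9.01 to 35.0% and 14.1 to 22.6% of *Postn* over the Control sections.

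**Figure D1:**
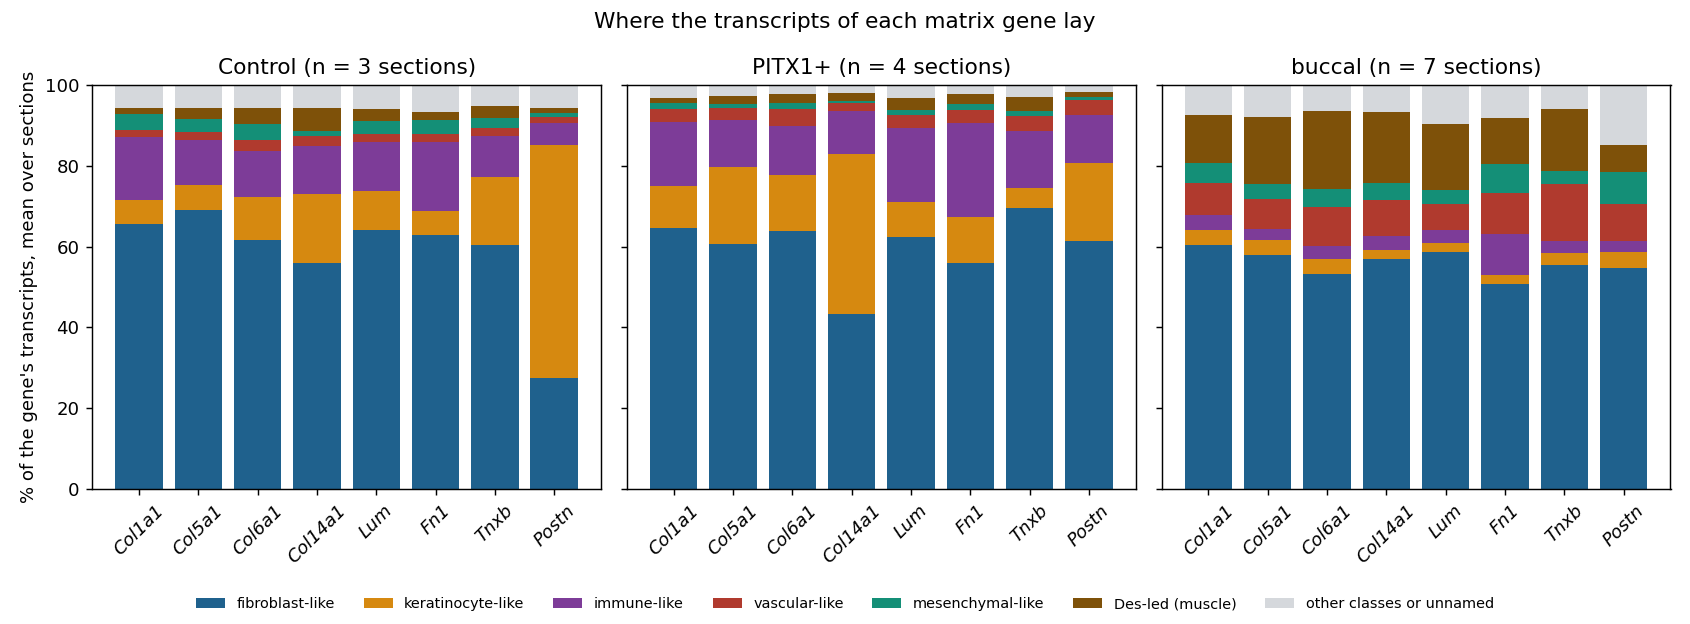
Percent of each gene's transcripts found in each cell class, as stacked bars of section means for Control skin (n = 3), PITX1+ skin (n = 4) and buccal mucosa (n = 7). Keratinocyte-like cells take a mean of 57.6% of *Postn* transcripts in Control skin and 19.4% in PITX1+ skin.

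*Col14a1* and *Tnxb* moved between classes as well. Keratinocyte-like cells held 19.4, 29.1 and 2.81% of *Col14a1* transcripts in Control sections and 39.7, 29.3, 54.2 and 34.8% in PITX1+ sections. In the latter, clusters led by *Lgr5*, a gene of hair follicle epithelium, and *Ptch1* held 0.965 to 31.2% and 0.185 to 19.0% over the sections. The study saw *Ptch1* in hair matrix cells and also in the dermal sheath and papilla around the bulb. A keratinocyte-like cell carried 0.0304, 0.0227 and 0.00998 *Col14a1* transcripts in Control and 0.0825, 0.109, 0.352 and 0.319 in PITX1+ sections. *Tnxb* went the other way, from 19.0, 23.6 and 7.56% in keratinocyte-like cells of Control sections to between 4.30 and 5.33% in PITX1+ sections. These shares are descriptions, and the number and depth of cells differed between the groups.

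*Postn* was the 1 of the 8 matrix genes that differed between Control and PITX1+ skin in fibroblast-like cells, where 8.23% of 328 genes passed. It stood at 4959, 978 and 7402 CPM in the Control sections and at 7960, 14855, 24488 and 18069 CPM in the PITX1+ sections. All 4 PITX1+ sections lay above all Control sections. The fitted log2 change was 1.81 (SE 0.49, adjusted p = 0.0403 by edgeR's quasi-likelihood test over all genes), and the means were 4446 ± 3243 (SD, n = 3) and 16343 ± 6875 CPM (SD, n = 4). Within slides, the PITX1+ mean was 2.88 times the Control value on the male slide and 3.84 times on the female slide. The call was lost in 13 of 24 alternatives, among them the male slide alone (log2 1.20, adjusted p = 0.126), the female slide alone (log2 2.16, adjusted p = 0.0886), each fit without Control section 2 or 3 or PITX1+ section 2 or 3 (adjusted p = 0.0704 to 0.173), transcripts over the nucleus (adjusted p = 0.0521), 30 or 60 clusters (adjusted p = 0.0502 and 0.0504) and no slide covariate (adjusted p = 0.569). Markers of other cell types moved with condition in these cells. The sum of 8 muscle and mural markers was 48899 to 89451 CPM in Control and 24850 to 36548 CPM in PITX1+ sections, without overlap, and that of 28 keratinocyte markers was 11442 to 19997 CPM and 12249 to 38718 CPM, with none of either list at 0. Their part in the result was not tested.

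The levels were also split by the place of the cells, as a description. Fibroblast-like cells within 50 µm of epithelium made up 38.5 to 54.3% of the class in Control and 65.3 to 81.0% in PITX1+ skin. Among these near cells *Postn* stood at 5725, 725 and 4431 CPM in Control and 9681, 16328, 27617 and 23394 CPM in PITX1+ sections, again without overlap. Among the other fibroblast-like cells the groups overlapped, at 4110, 1202 and 8696 against 4048, 11762, 12690 and 8139 CPM. The test of whether condition changed the near-to-away difference of *Postn* did not pass (log2 1.41, SE 0.41, adjusted p = 0.121 by edgeR), and the part of cell depth was not tested.

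The promoter of *Postn* is shown because, among the 8 genes, it carried the condition difference in fibroblast-like cells of skin and the largest place difference in buccal mucosa. RefSeq's table for GRCm38.p6 gives 2 starts for it, and the 60 bases before the downstream start, on the + strand at chr3:54361047-54361106, hold a TATA box, in capitals:

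Postn: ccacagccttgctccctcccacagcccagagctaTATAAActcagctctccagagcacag

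The letters TATAAA, searched on the strand of the gene between 40 and 21 bases before the start, begin at position -26 here and occur in 1.87% of 32851 promoters. The windows of the other *Postn* start and of *Col5a1*, *Col6a1* and *Tnxb* do not hold them. Promoters of *Col1a1*, *Col14a1*, *Lum* and *Fn1* were not available and were not searched.

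The 4 collagens did not pass between conditions. *Col1a1* stood at 73980, 301110 and 184770 CPM in Control and at 103730, 190180, 93522 and 129470 CPM in PITX1+ sections (log2 -0.67, SE 0.60, adjusted p = 0.525 by edgeR). *Col6a1* stood at 14438, 10476 and 19272 CPM in Control and at 17912, 34518, 33556 and 30043 CPM in PITX1+ sections, 3 of which exceeded every Control section (log2 0.88, SE 0.40, adjusted p = 0.186). *Col5a1* (log2 0.28, SE 0.40) and *Col14a1* (log2 0.77, SE 0.38) overlapped between the groups. In *Col5a1* and *Lum* the male Control section, at 28602 and 11109 CPM, was far above the female ones, at 11812 and 12882 CPM and at 2133 and 1769 CPM. *Lum*, *Fn1* and *Tnxb* did not pass either, with log2 differences of -0.28 (SE 0.37), 0.31 (SE 0.35) and -0.63 (SE 0.30). *Tnxb* ran from 17205 to 29376 CPM in Control and from 13047 to 19610 CPM in PITX1+ sections, and it passed with DESeq2 (log2 -0.71, adjusted p = 0.0461) and within the fibroblast-like cluster led by *Cyp26b1* (log2 -1.36, adjusted p = 0.0277). On the male slide alone none of the 8 passed in edgeR (log2 -1.01 to 1.20, adjusted p = 0.126 to 0.955), with 3 at an unadjusted p under 0.05, in a fit with 1 Control section that was assumed to vary like the others. No gene of the 8 passed a test of whether the condition difference itself differed between the slides.

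**Figure D2:**
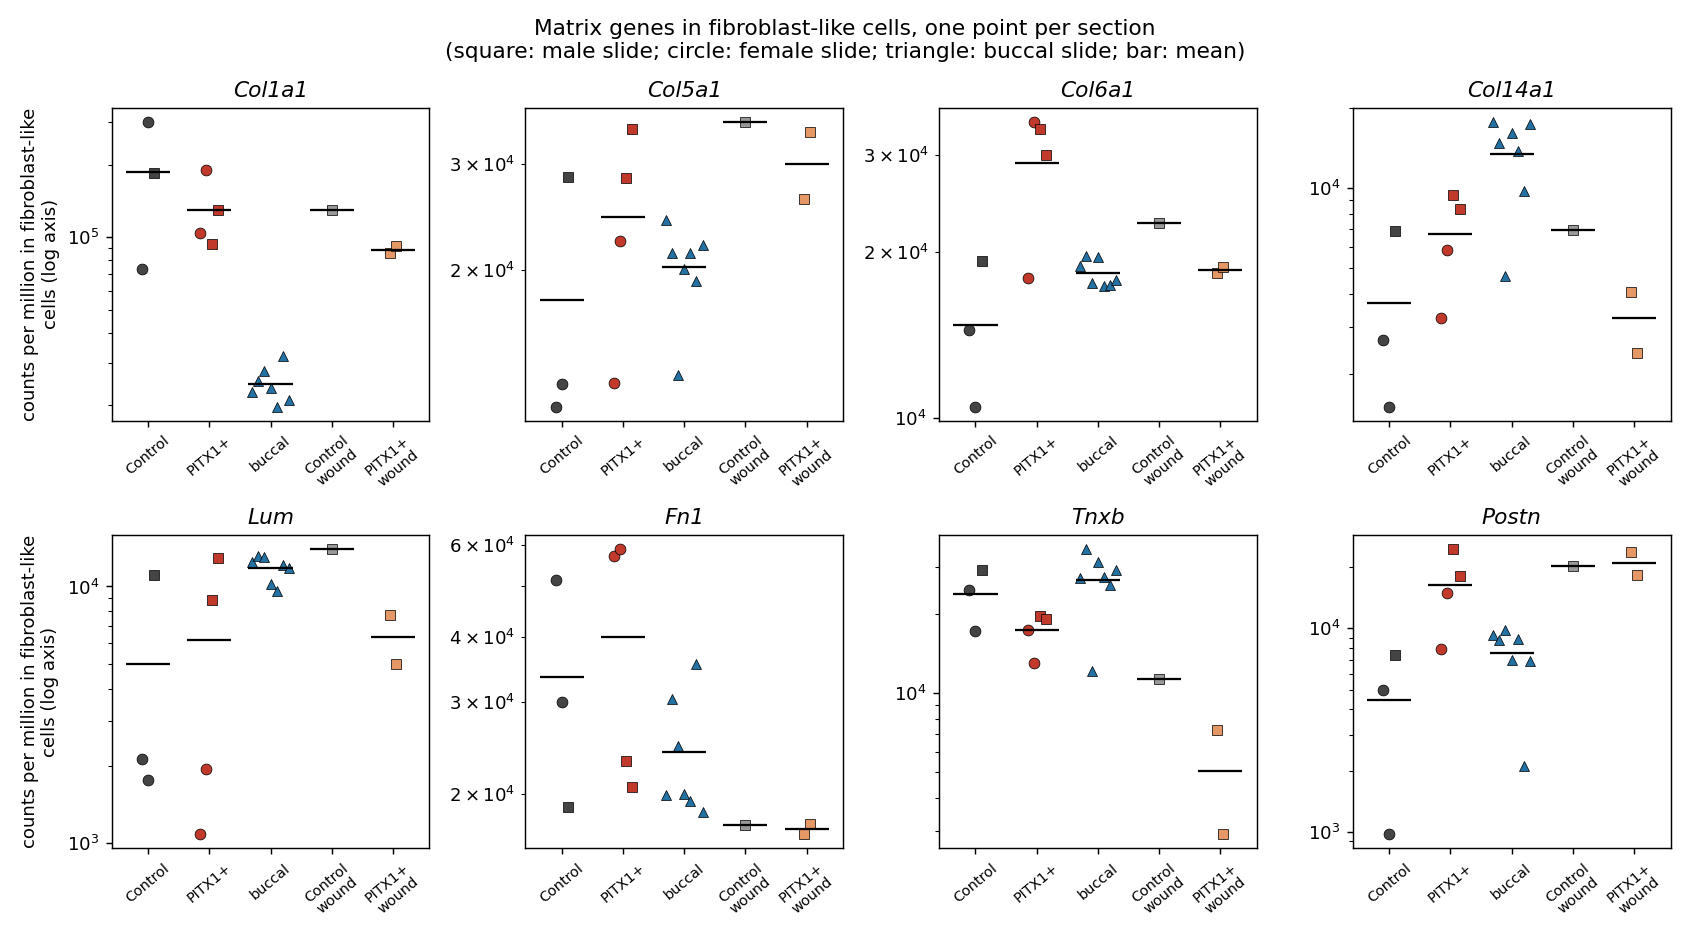
CPM in fibroblast-like cells on a log axis, one panel per gene and one point per section, with a bar at the group mean; squares are the male slides, circles the female slide and triangles the buccal slide. *Postn* points of PITX1+ skin (7960 to 24488 CPM) lie above all Control points, and *Col1a1* points of buccal mucosa (19804 to 32243 CPM) lie below all Control points.

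*Col1a1* was the 1 of 8 matrix genes that differed between buccal mucosa and Control skin in fibroblast-like cells, where 25.7% of 307 genes passed. It stood at 22852, 25340, 27912, 23544, 19804, 32243 and 21042 CPM in buccal sections 1 to 7, each below the lowest Control section. It was 8.58-fold lower (log2 -3.10, SE 0.39, adjusted p = 0.000275 by edgeR) and passed under each of 23 alternatives, with log2 differences between -3.60 and -2.31. Without buccal sections 3 and 6 the log2 difference was -3.22. The sum of 8 neural markers in fibroblast-like cells moved with tissue, at 3137 to 5912 CPM in Control and 7987 to 12511 CPM in buccal sections, without overlap and with at most 1 marker at 0 in a section. Its part was not tested.

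*Col14a1* and *Lum* lay mostly above Control in buccal mucosa without passing. *Col14a1* stood at 4656 CPM in buccal section 3 and between 9750 and 17699 CPM in the other 6, against a highest Control value of 6872 CPM (log2 1.71, SE 0.63, adjusted p = 0.0688). It passed without buccal sections 3 and 6 (log2 1.91, adjusted p = 0.0205), without buccal section 3 alone, with library size, with DESeq2 and over the nucleus (log2 1.53 to 1.94, adjusted p = 0.0217 to 0.0386). *Lum* varied little among buccal sections, from 9565 to 13099 CPM. Of its Control values of 2133, 1769 and 11109 CPM, only that of the male section lay within that range (log2 0.95, adjusted p = 0.248). Without this section *Lum* passed (log2 2.79, adjusted p = 3.9e-05). *Col5a1*, *Col6a1*, *Col14a1* and *Postn* also passed, all higher in buccal mucosa, once that section was left out. That fit kept 2 Control sections, both female, against 7 buccal sections. How many of all genes passed in fits with a section left out is given below only as a range. The calls made without the male Control section therefore do not set the matrix genes apart. *Fn1* (log2 -0.43, adjusted p = 0.208), *Tnxb* (log2 0.12), *Col5a1* (log2 0.02), *Col6a1* (log2 0.21) and *Postn* (log2 0.66) did not pass with all sections. *Fn1* passed, at a log2 difference of -0.98, with 30 clusters (adjusted p = 0.0187), at -0.92 without the *Igkc* cluster (adjusted p = 0.0237) and at -1.09 within the *Pi16* cluster (adjusted p = 0.0347), whereas over the nucleus it was 0.00.

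Fibroblast-like clusters differed in their matrix genes, given here as section means. The cluster led by *Pi16*, a marker of adventitial and deep fascial fibroblasts, had the highest *Fn1* mean of the clusters in each group, at 58543 CPM in Control, 84274 CPM in PITX1+ and 45203 CPM in buccal sections. It also had *Tnxb* at 32920, 34437 and 32901 CPM. In the cluster led by *Wif1*, a Wnt inhibitor, *Tnxb* stood at 12926, 4489 and 23745 CPM and *Postn* at 9143, 18305 and 16787 CPM. This cluster made up 1.82% of fibroblast-like cells in Control, 17.4% in PITX1+ and 2.19% in buccal sections. *Postn* of the cluster led by *Ccl19*, a chemokine, was 6869 CPM in Control and 22811 CPM in PITX1+ sections. Within single clusters the *Postn* difference between conditions passed in the cluster led by *Cyp26b1*, a retinoic acid oxidase (log2 2.30, adjusted p = 0.00699 by edgeR). It did not pass in those led by *Ccl19* (log2 1.76, adjusted p = 0.225), *Igkc* (log2 1.37, adjusted p = 0.0776) and *Pi16* (log2 0.33, adjusted p = 0.941). Whether it differed between clusters was not tested. *Col1a1* stood between 96452 and 244260 CPM in each cluster of skin and between 16243 and 34333 CPM in each cluster of buccal mucosa.

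In unwounded skin, *Col14a1*, *Fn1* and *Tnxb* were lower in fibroblast-like cells near epithelium than in those farther away. Near meant within 50 µm of the centre of a keratinocyte-like or sebaceous-like cell, and both places were compared within each section. The 3 of 8 genes that passed stood against 27.1% of 328 genes. *Col14a1* was 2.69-fold lower near epithelium (log2 -1.43, SE 0.20, adjusted p = 0.00036 by edgeR), with 1730, 824 and 1992 CPM near and 3733, 2126 and 8998 CPM away in Control, and 2496, 4334, 8140 and 6519 CPM near and 4979, 9104, 14360 and 11713 CPM away in PITX1+ sections. The lower side was the near side in all 7 sections.

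*Fn1* was 2.19-fold lower near epithelium (log2 -1.13, SE 0.17, adjusted p = 0.000572), also in all 7 sections. Its level was 11346 to 48299 CPM near and 22198 to 93826 CPM away. *Tnxb* was 1.88-fold lower (log2 -0.91, SE 0.20, adjusted p = 0.00708). In Control sections it was at 24464, 16154 and 24772 CPM near against 24611, 18139 and 31382 CPM away, and in PITX1+ sections at 12870, 9495, 16316 and 14660 CPM near against 27601, 20508, 32032 and 27645 CPM away. The test of whether condition changed this contrast did not pass for *Tnxb* either (log2 -0.94, SE 0.27, adjusted p = 0.101). *Tnxb* lost its call without the female PITX1+ sections (log2 -0.74, adjusted p = 0.0697) and at 100 µm (log2 -0.64, adjusted p = 0.0645), and *Col14a1* and *Fn1* kept theirs under all 20 alternatives.

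*Col1a1* was higher near epithelium in all 7 skin sections by CPM, but its fitted difference did not pass (log2 0.20, SE 0.20, adjusted p = 0.505). *Col6a1* was higher near epithelium in 6 of 7 sections (log2 0.27, adjusted p = 0.275), with its widest gap in PITX1+ section 2, at 39584 CPM near and 23878 CPM away. *Postn* was higher near in 1 of the Control and all 4 PITX1+ sections (log2 0.25, SE 0.30, adjusted p = 0.579), and *Col5a1* (log2 -0.12) and *Lum* (log2 -0.10) did not pass. With library sizes in place of TMM scaling, which moved the median of all genes by 0.230, *Col1a1* and *Col6a1* passed (log2 0.44 and 0.51) and *Col5a1* and *Lum* turned positive. *Col1a1* also passed at 100 µm (log2 0.86, adjusted p = 0.00972) and *Col6a1* with 60 clusters (log2 0.53, adjusted p = 0.0212). Keratinocyte markers moved with place, since their sum over 28 markers in fibroblast-like cells was 16800 to 49040 CPM near and 3149 to 15240 CPM away, with none at 0. Their part in the result was not tested.

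In buccal mucosa the largest place difference of the 8 genes was that of *Postn*, which rose near epithelium in every section. Here 5 of 8 genes passed, against 38.3% of 253 genes. *Postn* stood at 13243, 12878, 16234, 10762, 16424, 2617 and 15154 CPM near and at 5145, 3097, 5008, 2580, 1378, 1497 and 2380 CPM away in sections 1 to 7. The fitted ratio was 4.19-fold (log2 2.07, SE 0.27, adjusted p = 0.000137 by edgeR), and section 6, rich in salivary-like cells, had the smallest near level. *Fn1* (log2 -0.54, SE 0.11, adjusted p = 0.00217) fell near epithelium in all 7 sections. *Col14a1* (log2 -0.56, adjusted p = 0.0141), *Lum* (log2 -0.60, adjusted p = 0.028) and *Tnxb* (log2 -0.29, adjusted p = 0.0247) were each lower in 6 of 7. *Lum* went against its group in section 3, at 14852 CPM near and 11634 CPM away, and *Col14a1* and *Tnxb* in section 6. *Col1a1* was higher near in all 7 sections without passing (log2 0.26, adjusted p = 0.0527), and it passed in 5 alternatives (log2 0.21 to 0.42, adjusted p = 0.0154 to 0.0488).

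The 5 calls kept their direction and passed without buccal sections 3 and 6, with *Postn* at log2 2.18 and *Lum* at -0.82. *Col14a1*, *Lum* and *Tnxb* lost their calls without section 5 (adjusted p = 0.0562, 0.0753 and 0.0562), *Lum* and *Tnxb* also without section 1 (adjusted p = 0.0558 and 0.0661), and *Tnxb* also without section 4 (adjusted p = 0.0545). With 60 clusters all 3 lost theirs (adjusted p = 0.054, 0.0946 and 0.233), and at 100 µm *Col14a1* and *Tnxb* did (adjusted p = 0.137 and 0.19). *Tnxb* lost it in 8 of 20 alternatives in all, the rest being library size in place of TMM, no filter on genes and transcripts of any quality (adjusted p = 0.0579, 0.052 and 0.115). Keratinocyte markers summed to 7550 to 47480 CPM near and 8560 to 13630 CPM away, and their part was not tested. *Col5a1* and *Col6a1* differed by log2 -0.15 and -0.12 and did not pass. *Col5a1* passed in 5 alternatives (log2 -0.31 to -0.19, adjusted p = 0.00123 to 0.0421), among them those without section 3, and *Col6a1* passed over the nucleus (log2 -0.32, adjusted p = 0.00835).

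The place contrast itself differed between buccal mucosa and skin for *Postn* and *Col14a1*, or 2 of 8 genes against 9.15% of 328. The near-to-away difference of *Postn* was larger in buccal mucosa by 1.78 on the log2 scale (SE 0.42, adjusted p = 0.00926 by edgeR), and that of *Col14a1* was less negative by 0.83 (SE 0.24, adjusted p = 0.036). *Postn* kept this without the female PITX1+ sections (log2 1.92, adjusted p = 0.0228) and without buccal sections 3 and 6 (log2 1.91, adjusted p = 0.0108). *Col14a1* lost it in both (adjusted p = 0.0991 and 0.0598), and *Lum* passed without buccal sections 3 and 6 (log2 -0.75, adjusted p = 0.0285) where it had not with all sections (log2 -0.54, adjusted p = 0.225).

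Finer distance bins showed where the genes changed. In PITX1+ skin *Postn* stood at 18556 ± 7108 CPM (SD, n = 4) within 15 µm of epithelium, 23271 ± 10832 CPM at 15 to 25 µm, 11648 CPM at 50 to 100 µm and 2328 CPM (n = 3) at 200 to 400 µm. Control means lay between 2598 and 5145 CPM in every one of these bins. In buccal mucosa *Postn* fell from 14775 CPM in the first bin to 1307 CPM at 200 to 400 µm (n = 6). *Tnxb* was lowest in the first bin of PITX1+ skin, at 6747 ± 770 CPM, and reached 18254 CPM at 15 to 25 µm, against 16625 and 24335 CPM in Control.

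*Col14a1* climbed steadily with distance in Control skin, from 842 to 7188 CPM, and in buccal mucosa, from 8096 to 18803 CPM. In PITX1+ skin it climbed from 3906 CPM to 10955 CPM at 100 to 200 µm. *Col6a1* declined in PITX1+ skin from 37378 CPM within 15 µm to 12624 CPM at 200 to 400 µm, and stayed between 16337 and 19431 CPM in buccal mucosa up to 400 µm. *Col1a1* peaked at 25 to 50 µm in Control skin, at 268210 CPM, and in PITX1+ skin, at 163980 CPM, and was at 41614 and 54628 CPM at 200 to 400 µm.

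**Figure D3:**
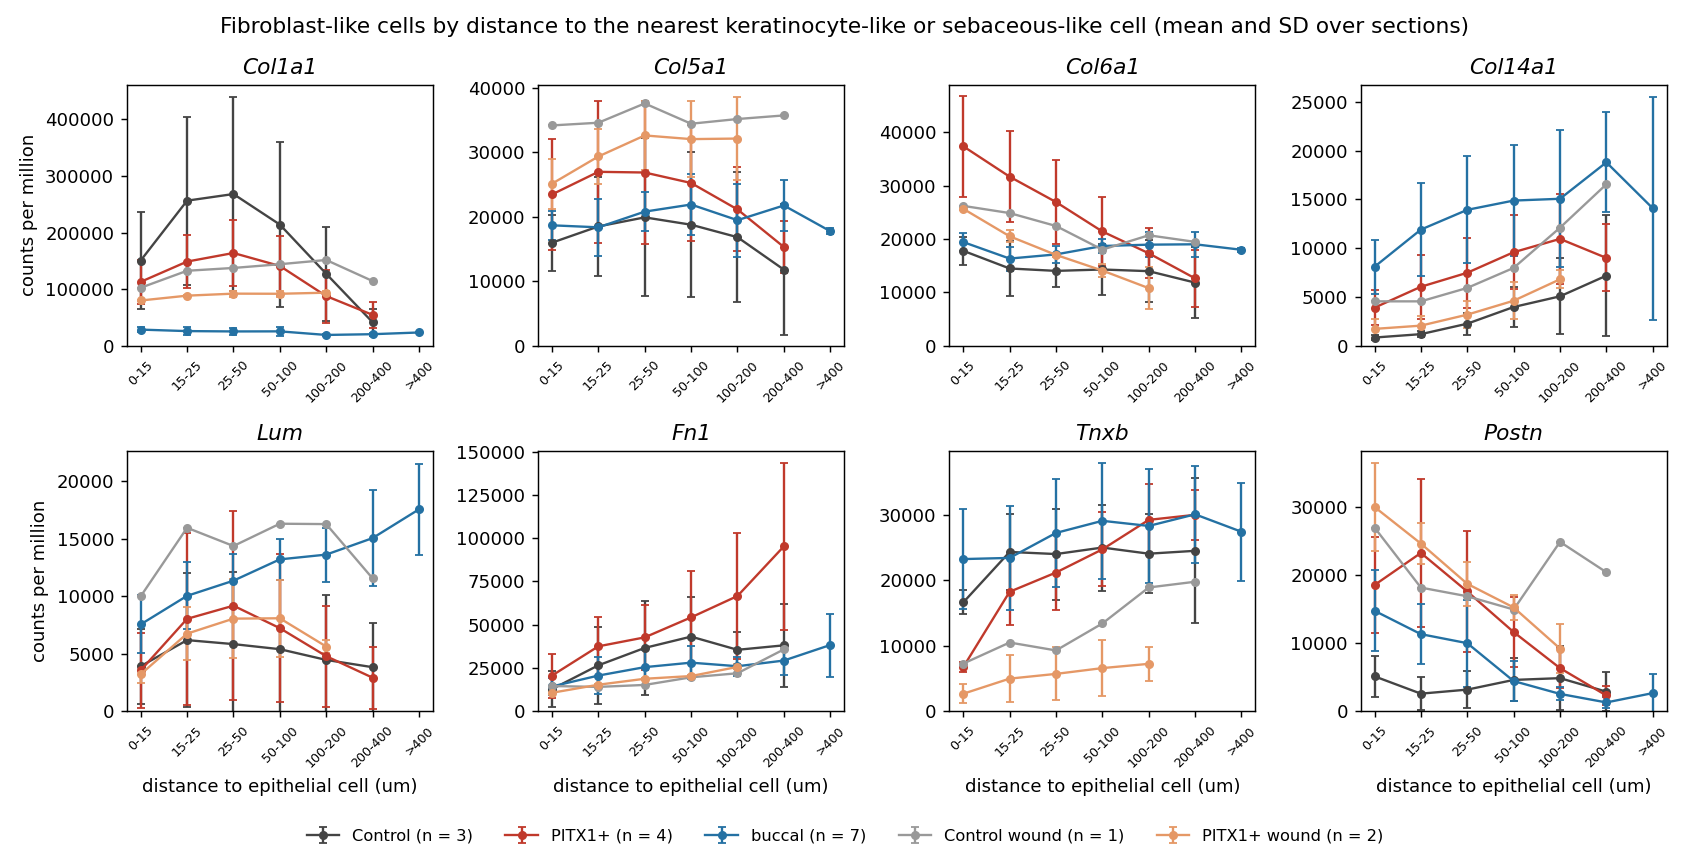
Mean CPM with SD in fibroblast-like cells by distance (µm) to the nearest keratinocyte-like or sebaceous-like cell, one panel per gene and one line per group (Control skin, PITX1+ skin, buccal mucosa, Control wound, PITX1+ wounds). Up to 400 µm, mean *Postn* falls with distance from 25 µm on in PITX1+ skin and from the first bin on in buccal mucosa. *Col14a1* rises with distance up to 200 µm in all 3 unwounded groups.

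Next to muscle, skin fibroblast-like cells had less *Col1a1*, *Lum* and *Postn*. The comparison took cells over 50 µm from epithelium and set those within 50 µm of a cell from clusters led by *Des*, a muscle filament gene, against the others. The 3 of 8 genes that passed stood against 9.29% of 312 genes, and each was lower near muscle in all 7 sections. *Col1a1* stood at 32113, 68623 and 79878 CPM near and 70656, 358680 and 254390 CPM away in Control, and at 63049, 118630, 68447 and 66813 CPM near and 95621, 192100, 117800 and 185800 CPM away in PITX1+ sections (log2 -1.38, SE 0.32, adjusted p = 0.0199 by edgeR). *Postn* was at 690 to 6469 CPM near and 1582 to 20990 CPM away (log2 -1.29, SE 0.16, adjusted p = 0.000374). *Lum* was at 967 to 10262 CPM near and 1207 to 16121 CPM away (log2 -0.66, SE 0.17, adjusted p = 0.0314). *Col5a1*, *Col6a1*, *Col14a1*, *Fn1* and *Tnxb* did not pass.

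At a distance of 100 µm in place of 50 µm none of these passed (*Col1a1* log2 -0.86, *Postn* -0.45, *Lum* -0.09; adjusted p = 0.392, 0.48 and 0.908). *Col1a1* also lost its call without Control section 3 (adjusted p = 0.053) or PITX1+ section 4 (adjusted p = 0.0788), and *Lum* lost it in 5 of 7 such fits, without Control section 1, 2 or 3 or PITX1+ section 3 or 4 (adjusted p = 0.0699 to 0.115). *Lum* lost it as well over the nucleus, with any quality, with 30 clusters and without the *Igkc* cluster (adjusted p = 0.0551 to 0.165). The sum of 8 muscle and mural markers in these fibroblast-like cells was 79560 to 275000 CPM near and 12620 to 24800 CPM away. Its part was not tested.

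In the 5 buccal sections with enough cells in both places, *Fn1* was the 1 of 8 genes that passed near muscle, against 5.7% of 193 genes. It stood at 29594, 21467, 22376, 26920 and 20668 CPM near and at 81215, 38685, 44358, 45148 and 29330 CPM away in sections 2, 3, 5, 6 and 7 (log2 -0.85, SE 0.19, adjusted p = 0.016 by edgeR). It was lower near muscle in each of them, and the other 7 genes did not pass. The call was lost without section 2 (adjusted p = 0.125) or section 5 (adjusted p = 0.101), with at least 20 transcripts per cell (adjusted p = 0.584), with 30 clusters (adjusted p = 0.28) and at 100 µm (adjusted p = 0.992). The muscle and mural marker sum was 78890 to 126400 CPM near and 14420 to 26760 CPM away there, and its part was not tested. No gene of the 8 passed a test of the difference between skin and buccal mucosa in this contrast. *Col1a1*, *Col5a1*, *Lum* and *Postn* came near the threshold (log2 1.41, 0.85, 1.20 and 1.33, adjusted p = 0.0779 each by edgeR).

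In wounds on POD4, *Tnxb* and *Col14a1* fell in fibroblast-like cells relative to unwounded male skin. These were 2 of 8 genes, against 27.2% of 327 genes. All kept cells of the wound sections were used, including any in the eschar. *Tnxb* stood at 29376 CPM in Control and at 19610 and 19192 CPM in PITX1+ unwounded sections, and at 11318 CPM in the Control wound and 7245 and 2922 CPM in the PITX1+ wounds. All 3 wounds lay below all 3 unwounded sections, a 4.13-fold lower level with condition in the fit (log2 -2.05, SE 0.32, adjusted p = 0.00251 by edgeR), and the call held under each of 17 alternatives.

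*Col14a1* was 2.38-fold lower (log2 -1.25, SE 0.33, adjusted p = 0.0227), but the Control wound, at 6964 CPM, was level with the Control section, at 6872 CPM. The PITX1+ wounds, at 4080 and 2396 CPM, were below the PITX1+ sections, at 9444 and 8332 CPM. Its call was lost without PITX1+ section 3 or 4 or either PITX1+ wound (adjusted p = 0.0565 to 0.101), with library size in place of TMM (log2 -0.98, adjusted p = 0.104) and over the nucleus (adjusted p = 0.0566). *Col1a1* (log2 -0.66, adjusted p = 0.0799), *Col6a1* (log2 -0.70, adjusted p = 0.069), *Lum* (log2 -0.70, adjusted p = 0.129), *Fn1* (log2 -0.53, adjusted p = 0.114), *Postn* (log2 0.21, adjusted p = 0.605) and *Col5a1* (log2 -0.20, adjusted p = 0.598) did not pass. *Col1a1* passed without PITX1+ section 3 or PITX1+ wound 2 (adjusted p = 0.0273 and 0.0323), and *Col6a1* without the Control section or the Control wound (adjusted p = 0.0422 and 0.0384). *Postn* was higher in the Control wound, at 20249 CPM, than in the Control section, at 7402 CPM. It was at 23791 and 18230 CPM in the PITX1+ wounds and at 24488 and 18069 CPM in the PITX1+ sections. The test of whether wounding acted differently by condition did not pass for *Postn* (log2 -1.13, adjusted p = 0.396) or any other of the 8 genes, and with 1 wounded and 1 unwounded Control section its spread comes from the PITX1+ sections alone.

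Immune markers moved with wounding, since their sum over 38 markers in fibroblast-like cells was 51890 CPM in the Control wound and 57743 and 59042 CPM in the PITX1+ wounds, against 22280 to 49601 CPM over the unwounded skin sections, with at most 2 of the 38 at 0 in a Control section and none in the others. The sum of 9 vascular markers was 4468 to 5442 CPM in wounds and 6499 to 7366 CPM in the male unwounded sections. That of 5 sebaceous markers was 4123 to 6887 against 8217 to 9322 CPM, and that of 5 salivary markers 441 to 955 against 143 to 358 CPM. The part of these markers was not tested. Outside fibroblast-like cells, *Fn1* lay largely in immune-like cells of wounds. Immune-like cells held 42.9% of its transcripts in the Control wound and a mean of 56.8% in the PITX1+ wounds, against means of 17.1% in Control and 23.3% in PITX1+ unwounded skin. These cells were 45.1% of kept cells in the Control wound, against 10.1 to 14.5% in Control skin. In PITX1+ sections they were 41.9 and 51.7% in wounds, against 9.21 to 22.3% in unwounded skin. Their *Fn1* level was 12778 CPM in the Control wound, against a mean of 24543 CPM in Control skin. In PITX1+ sections its means were 19383 CPM in wounds and 32573 CPM in unwounded skin. Immune-like cells also held 32.0% of *Col1a1* transcripts in the Control wound, and from 22.1% (*Tnxb*) to 27.6% (*Lum*) of each remaining gene. In Control skin mean *Col1a1* was 123590 CPM in immune-like and 186620 CPM in fibroblast-like cells. Whether such transcripts came from the immune-like cells or from neighbouring cells was not tested. A cluster led by the chemokine gene *Cxcl5* made up 19.99% of fibroblast-like cells in the Control wound, 37.7% on average in PITX1+ wounds and 0.330% in Control skin. The *Postn* level within wounds was highest in the cluster led by *Wif1*, at 31786 CPM in the Control wound and a mean of 33157 CPM in the PITX1+ wounds, against 15955 and 10108 CPM in the *Pi16* cluster.

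With 1 Control wound there was no test between wounds, and intervals (exact 95% Poisson) cover counting error only. *Col1a1* was 129970 CPM (128590 to 131370) in the Control wound and 85809 (85082 to 86541) and 91792 CPM (91246 to 92342) in the PITX1+ wounds. *Lum* was 13966 CPM (13515 to 14428) against 7726 (7509 to 7948) and 5003 CPM (4876 to 5132). Both PITX1+ wounds were lower for each gene by more than counting error. For *Fn1* the 3 sections were close, at 17475 (16970 to 17990), 16764 (16443 to 17089) and 17494 CPM (17256 to 17735). For *Postn* they fell on both sides, at 20249 (19706 to 20804) against 23791 (23409 to 24178) and 18230 CPM (17987 to 18476).

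Cutting the wound sections into bands of 1 mm along their long side, a division made after the values were seen, showed a stretch poor in *Postn* within each wound. In the Control wound, bands 4 and 5 were 95.1 and 79.8% immune-like cells and held 73 and 101 fibroblast-like cells. These bands hold few transcripts, so exact 95% Poisson intervals are given. *Postn* was 1319 CPM from 2 transcripts (160 to 4766) and 2950 CPM from 8 (1274 to 5812), against 21650 to 22790 CPM in bands 2, 3, 7 and 8, 11950 CPM in band 1 and 7592 CPM in band 6. *Col1a1* was 37600 CPM (28480 to 48710) and 11060 CPM (7463 to 15790). *Fn1* was 9894 CPM (5538 to 16320) and 8112 CPM (5084 to 12280), against 13070 to 21760 CPM in the other 6 bands. *Tnxb* was 20170 CPM in band 1, 4616 CPM in band 3, 883 CPM from 5 transcripts (287 to 2060) in band 6, 7253 CPM in band 7 and 14880 CPM in band 8.

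In PITX1+ wound 1 *Postn* was 29550 CPM in band 4, 7780 CPM in band 5, where immune-like cells peaked at 77.8%, 2398 CPM in band 6 and 24050 CPM in band 8, while *Tnxb* was between 1662 and 3044 CPM from band 4 to band 7 and 21750 CPM in band 10. *Col1a1* was 11140 CPM and *Fn1* 28310 CPM in its band 6, against 91650 and 26820 CPM in band 5. In PITX1+ wound 2, *Postn* dipped to 5757 CPM in band 4, where 93.9% of cells were immune-like, and was 16270 to 20830 CPM from band 6 on. *Col1a1* was 130200, 103800 and 116800 CPM in bands 3 to 5 and 77720 to 86180 CPM from band 6 on, and *Fn1* was 27550 CPM (23080 to 32630) in band 4 and 13840 to 26090 CPM in the other bands. *Tnxb* was 17030 CPM in its first band and stayed between 942 and 1731 CPM from band 6 to band 10, and *Col14a1* went from 10590 to 1038 CPM between its ends. The labels mark neither the wound bed nor the eschar, so these bands are places on the section only. The study left the eschar out of its Xenium work as mostly dead or dying cells. It was not left out here, so all wound values of this report cover a different set of cells. The depth of cells in each band is not given here.

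**Figure D4:**
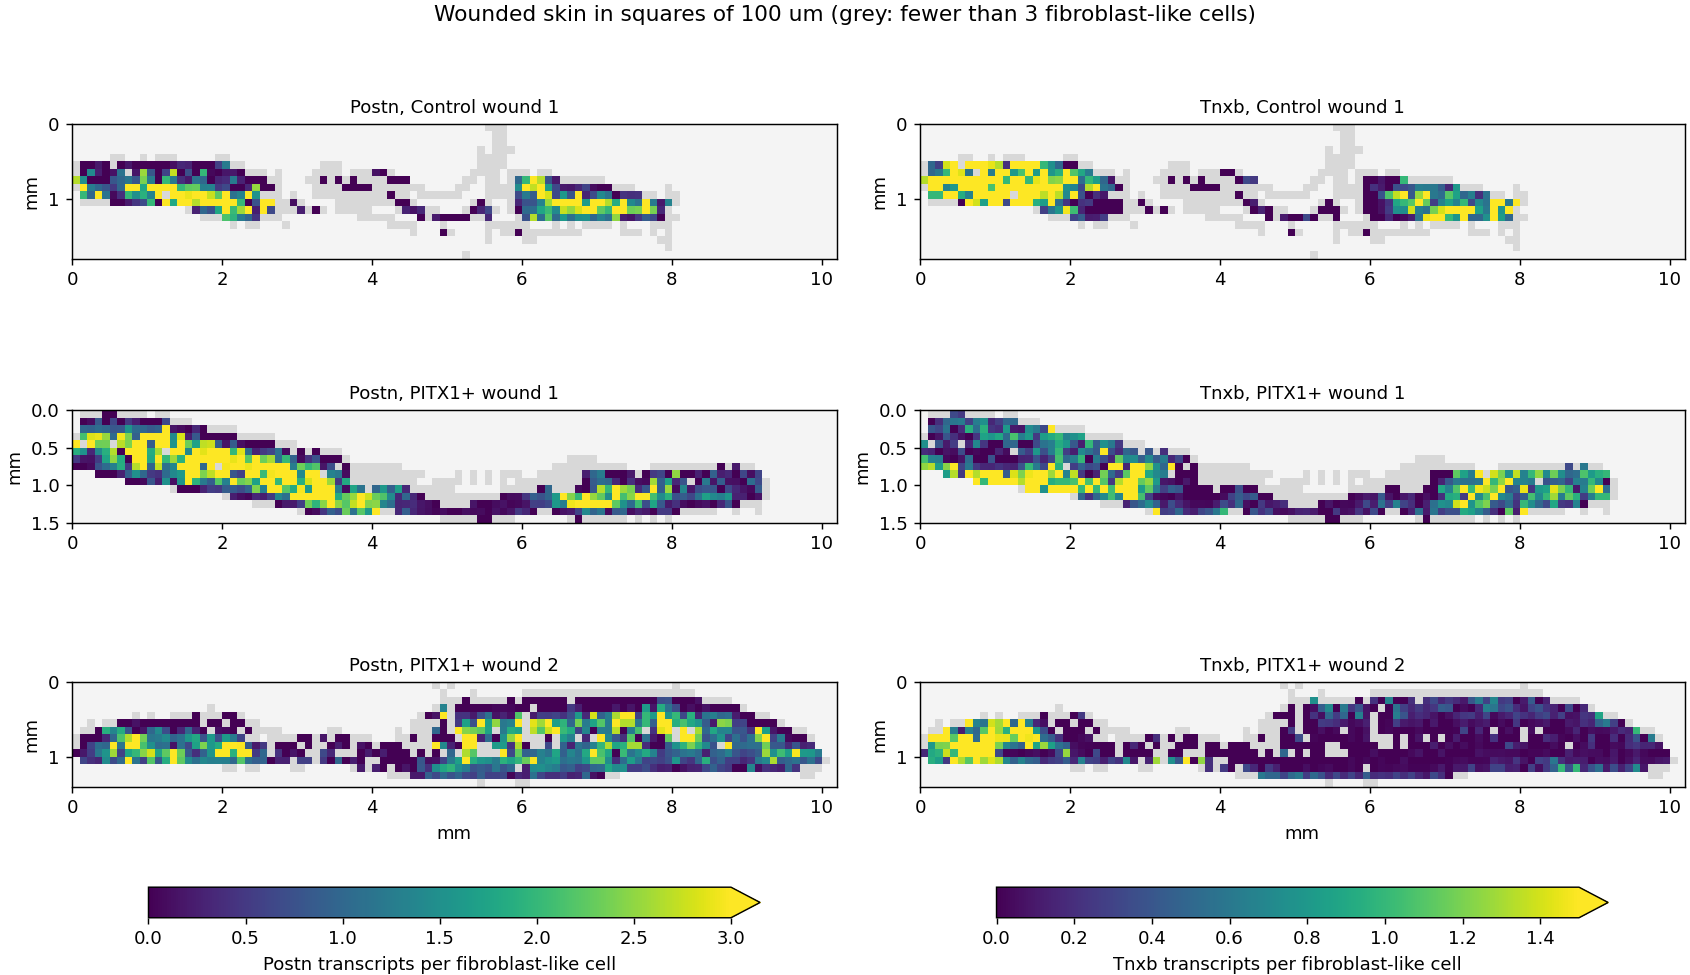
Transcripts of *Postn* (left) and *Tnxb* (right) per fibroblast-like cell in squares of 100 µm over the 3 wound sections, with colour scales up to 3 and 1.5 transcripts per cell and grey for squares with fewer than 3 fibroblast-like cells. *Postn* is high on both sides of a poor stretch, and *Tnxb* is sparse across the middle of each section and, in PITX1+ wound 2, on to its far end.

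Immune cells were also counted around each fibroblast-like cell. Fibroblast-like cells with at least 50% immune-like cells among their 20 nearest neighbours made up 36.5% of the class in the Control wound and 38.7 and 42.0% in the PITX1+ wounds. *Fn1* was higher in them than in the other fibroblast-like cells of the same section, at 20182 against 16020, 22291 against 12644 and 19795 against 15646 CPM. *Col6a1* was lower in all 3, at 20028 against 23926, 15513 against 20406 and 14874 against 21907 CPM. *Postn* was level in the Control wound, at 19984 against 20392 CPM, and lower in both PITX1+ wounds, at 20496 against 26247 and 13474 against 22050 CPM. In unwounded skin sections with enough such cells *Fn1* was higher in them as well, but within counting error in Control section 3. It was 102420 against 50598 CPM in Control section 1, with 75 such cells. In Control section 3, with 105 such cells, *Fn1* was 20057 (exact 95% Poisson interval 16405 to 24281) against 18863 CPM. In PITX1+ sections 1 to 4 it was 77889 against 51926, 73859 against 55891, 40925 against 22758 and 24032 against 20549 CPM. These sections had 3173, 2913, 180 and 111 such cells. The part of immune-cell transcripts was not tested.

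Sums over all cells of a section need no cell names, though fewer cells of a type and less RNA per cell cannot be told apart in them. *Tnxb* was the 1 of 8 genes lower in PITX1+ skin, against 20.4% of 328 genes. It stood at 10573, 7824 and 13403 CPM in Control and at 4124, 3596, 4821 and 6323 CPM in PITX1+ sections, without overlap (2.61-fold lower, log2 -1.38, SE 0.24, adjusted p = 0.0109 by edgeR). The call was lost on the male slide alone (log2 -1.42, adjusted p = 0.162) and without the slide covariate (log2 -1.33, adjusted p = 0.0983). *Col1a1* was the 1 of 8 genes that differed between buccal mucosa and Control skin, against 38.1% of 328 genes. It was 30027, 117510 and 80620 CPM in Control and between 2199.6 and 4216 CPM in buccal mucosa except for 14447 CPM in section 3 (13.6-fold lower, log2 -3.77, SE 0.56, adjusted p = 0.00082). In each of these comparisons the other 7 genes did not pass.

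**Figure D5:**
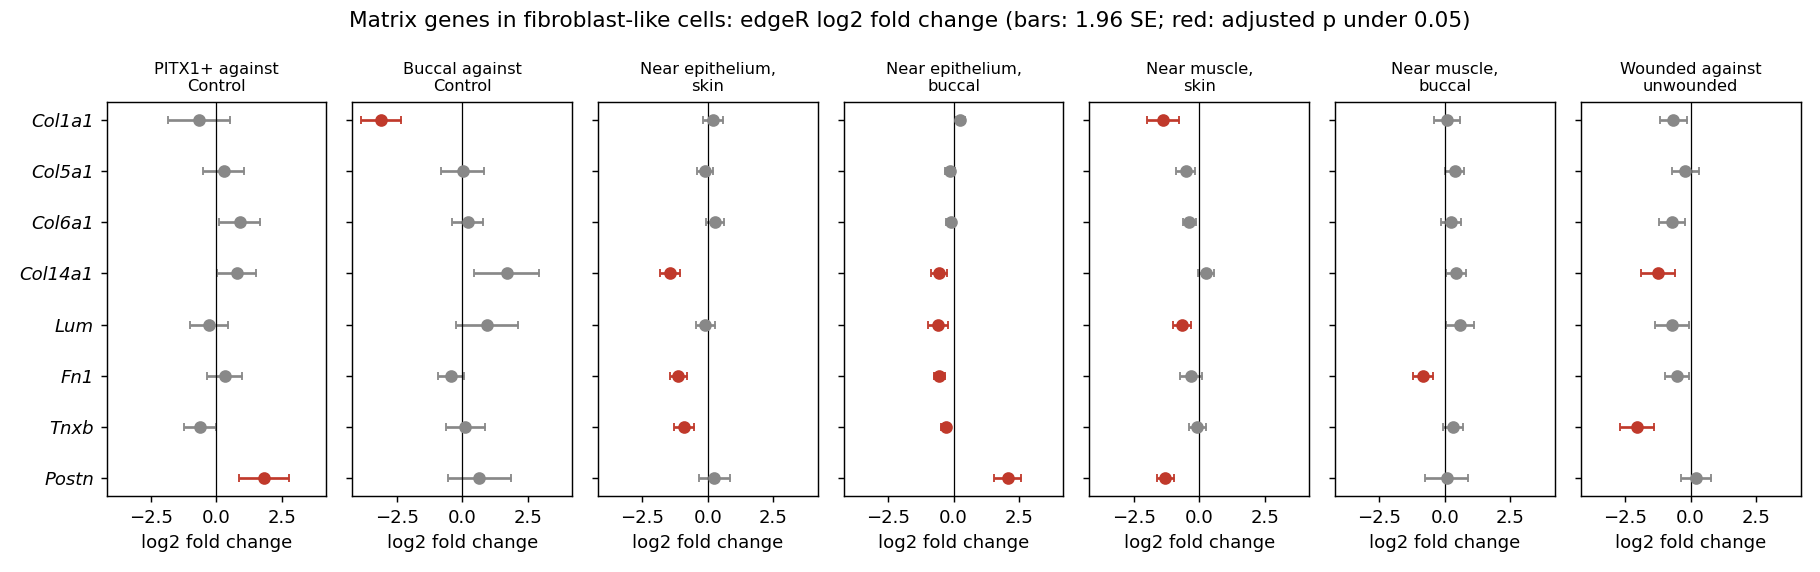
Log2 differences from edgeR with 95% intervals from the SE for the 8 genes in the 7 comparisons of fibroblast-like cells; red points passed an adjusted p of 0.05. *Col1a1* in buccal mucosa against Control (-3.10), *Tnxb* in wounds (-2.05) and *Postn* near epithelium in buccal mucosa (2.07) lie farthest from 0.

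Other matrix genes on the panel were followed in the same fits, in lists of 5 basement membrane genes, 9 matricellular genes, 8 proteases and inhibitors, 10 matrix receptors and 4 TGF-beta genes. In wounds, where 27.2% of 327 genes passed, 5 of 9 matricellular genes rose, led by *Spp1*, *Tnc* and *Ccn4* (log2 5.05, 4.33 and 1.92), with a list median of 1.26 against 0.032 over all genes. Of the proteases and inhibitors 4 rose, led by *Mmp9*, *Timp1* and *Mmp12* (log2 3.81, 3.55 and 3.05), and the inhibitor *Timp3* fell (log2 -1.97). *Spp1*, *Mmp9* and *Mmp12* are also made by macrophages or neutrophils. The sum of immune markers in fibroblast-like cells was 51890 to 59042 CPM in wounds and 28808 to 37844 CPM in the male unwounded sections, and its part was not tested. The basement membrane gene *Lamc1* fell there (log2 -1.22), while 0 of 10 receptors and 0 of 4 TGF-beta genes passed in edgeR.

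In PITX1+ against Control skin, where 8.23% of 328 genes passed, *Col7a1*, the anchoring fibril collagen, rose (log2 1.62) and *Col17a1*, a hemidesmosome collagen, fell (log2 -1.09). Both are made by keratinocytes, whose 28 markers summed to 11442 to 19997 CPM in Control and 12249 to 38718 CPM in PITX1+ fibroblast-like cells. Their part was not tested. *Ccn4* (log2 1.51), *Timp1* (1.76), *Mmp12* (1.82) and the hyaluronan receptor *Cd44* (1.05) rose as well. On the male slide alone none of these 6 passed in edgeR (adjusted p = 0.0599 to 0.54), with 3 at an unadjusted p under 0.05, and the log2 differences were 1.04 for *Col7a1*, -1.43 for *Col17a1*, 1.11 for *Ccn4*, 1.32 for *Timp1*, 0.83 for *Mmp12* and 0.60 for *Cd44*. *Mmp3* went opposite ways on the slides, at log2 -2.09 on the male and 1.04 on the female slide. The male fit had 1 Control section assumed to vary like the others, so no call is drawn for *Mmp3*. On the female slide alone, with the pair whose *Pitx1* was not raised, *Col7a1*, *Ccn4*, *Timp1*, *Mmp12*, *Mmp9* and *Tnc* passed (log2 1.66 to 2.23, adjusted p = 0.0286 to 0.046). The number of all genes passing on that slide is not given here, so these calls do not set matrix genes apart. *Mmp9* and *Tnc* were at -0.32 and -0.58 on the male slide (adjusted p = 0.817 and 0.54).

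Between tissues, where 25.7% of 307 genes passed, buccal fibroblast-like cells had more *Timp3*, *Adam10*, *Cd44*, *Itga1* and *Itgb1* (log2 1.68, 1.39, 1.49, 1.33 and 0.79) and less *Mmp12*, *Mmp14* and *Col7a1* (log2 -3.22, -2.33 and -1.54) than those of Control skin. *Mmp14* encodes a membrane-bound collagenase and *Timp3* an inhibitor of such enzymes.

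Near epithelium, 3 of 5 basement membrane genes rose and 1 fell in each tissue, against 27.1% of 328 genes called in skin and 38.3% of 253 in buccal mucosa. *Col7a1*, *Col17a1* and *Lama3* were higher by log2 2.68, 2.46 and 1.12 in skin and 4.32, 4.18 and 1.56 in buccal mucosa, and *Lamc1* was lower by -1.05 and -0.80. *Ccn4* and *Sdc1* rose in skin (log2 1.20 and 1.45) and *Sdc2* fell (log2 -0.46). In buccal mucosa *Tnc* (log2 2.37), *Sdc1* (1.21), *Mmp3* (0.85), *Itga1* (0.77) and *Mmp2* (0.38) rose and *Tgfbi* fell (log2 -0.63). *Col7a1*, *Col17a1*, *Lama3* and *Sdc1* are made by keratinocytes, whose markers moved with this place as given above. The part of keratinocyte transcripts in these rises was not tested. Next to muscle in skin, against 9.29% of 312 genes, *Mmp3*, *Mmp14*, *Efemp1*, *Itgb3* and *Thbs2* fell (log2 -1.18, -1.08, -0.77, -0.73 and -0.55) and *Tgfb3* rose (log2 1.06), and in buccal mucosa no gene of these lists passed.

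Across the 14 unwounded sections, the panel genes closest to each matrix gene in fibroblast-like cells are given as Spearman correlations of log2 CPM, a description over sections that share slides and depth. *Col1a1* was closest to *Epha4* (0.851) and *Mmp14* (0.837), *Postn* to *Lrrc15* (0.807) and *Hist1h1b* (0.771), and *Col6a1* to *Ephb3* (0.864) and *Lrrc15* (0.776). *Col14a1* was closest to *Rora* (0.890) and *Bmp4* (0.881), *Tnxb* to *Bmp4* and *Dkk2* (0.824 each), *Fn1* to *Csf3* (0.933) and *Plet1* (0.881), *Col5a1* to *Ephb3* (0.829) and *Hpgd* (0.807), and *Lum* to *Sdc2* (0.776) and *Id3* (0.771). Among the matrix genes themselves, the highest values were those of *Col5a1* with *Col6a1* and of *Col14a1* with *Tnxb* (0.710 each) and of *Col6a1* with *Postn* (0.705). The lowest were those of *Col14a1* with *Col1a1* (-0.763) and *Fn1* (-0.596) and of *Col1a1* with *Tnxb* (-0.560).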

How the data were processed

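The authors deposited the Xenium output of each of the 4 slides. The deposited cells table gives counts of transcripts and control calls per cell, without normalization, and the deposited transcripts table lists every decoded transcript with its score, its cell, its position and whether it overlapped a nucleus. Software and segmentation settings are not given in the sources used here, and outlines were not used. Gene transcripts scoring 20 or more were summed by cell, which equalled the deposited counts in every cell, and 98.2 to 99.1% of them lay in cells. Sections were groups of at least 2000 cells chained within 100 µm (200 µm for wounds), numbered by position. Control sections gave 474847 to 749248 transcripts, PITX1+ 2832562 to 5581930, buccal 136365 to 2368603 and wounds 1622746 to 5430303.

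Clustering took cells of 10 or more transcripts and made 45 clusters on 40 principal components of 284 genes, leaving out 44 matrix genes. Clusters were named from at least 3 markers (Python 3.11.15, scikit-learn 1.9.0). No doublet caller was run. Counts were summed per section and tested by edgeR's quasi-likelihood test (edgeR 4.0.16, R 4.3.3) after filterByExpr and TMM scaling, with Benjamini-Hochberg adjustment over all genes tested and a threshold of 0.05, with slide as a covariate between conditions, section as a block between places and condition as a covariate for wounds. DESeq2 1.42.0 was an alternative. On simulated counts for Control against PITX1+ over 328 genes, 15.3, 51.9 and 100.0% of genes changed 1.5-, 2- and 4-fold were recovered, for wounds over 327 genes 7.69, 34.5 and 92.5%, for buccal mucosa against Control over 307 genes 7.69, 17.0 and 62.3%, and for the latter in all cells over 328 genes 0.0, 2.27 and 42.0%. The genes and lists were chosen with earlier results of these data known. All 8 genes were to be named in every comparison, and near muscle and over all cells values are given for those that passed. Of each other list the up to 3 genes with the largest change in each direction among those that passed are named, and for likeness the 2 genes with the highest Spearman correlation. Intervals cover counting error only.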

Additional observations from a re-analysis of the deposited data

Results flagged for a closer look

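*Postn* in fibroblast-like cells of buccal section 6 was 2115 CPM, the lowest of 7 sections, with the next at 6943 CPM, a gap of 0.623 of the whole range. *Tnxb* in buccal section 3 was 12087 CPM, the lowest of 7, with the next at 25743 CPM, a gap of 0.592 of the range. Of 16 groups examined 2 had such a value, and chance gives about 1 in 20. These are the sections with 2651 salivary-like cells and with 11 keratinocyte-like cells, respectively.

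The difference between fibroblast-like cells near and away from epithelium differed between buccal mucosa and skin for *Col14a1*, by 0.83 on the log2 scale (SE 0.24, adjusted p = 0.036 by edgeR), and for *Postn*, by 1.78 (SE 0.42, adjusted p = 0.00926). *Postn* was higher near epithelium in 7 of 7 buccal and 5 of 7 skin sections, and *Col14a1* was lower in 6 of 7 buccal and 7 of 7 skin sections. Tissue and slide cannot be told apart here.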

How the results depend on the processing

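Of the calls of the 8 genes, 193 of 226 held under alternatives other than leaving out a section and 107 of 130 when 1 section was left out. Differences of the 8 genes that had not passed came to pass 22 times under the former alternatives and 12 times with a section left out. The counts of calls cover all comparisons. Those of differences that had not passed cover fibroblast-like cells between conditions, between tissues, by distance to epithelium and in wounds. Differences that had not passed near muscle or over all cells were not followed this way. The *Postn* difference between PITX1+ and Control skin was lost in 13 of 24 alternatives (log2 0.33 to 2.30). Alternatives restricted to clusters, to the male or female slide, or without buccal sections 3 and 6 or the female PITX1+ sections were chosen after seeing the data. No pairing between sections was possible because the only number in the labels is shared by slides that are single samples, and sections carry none. Places within a section were blocked by section throughout. Causes were not tested.

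Numbers of genes called moved as follows. Between PITX1+ and Control skin 27 were called, 14 with transcripts over the nucleus, 15, 1 and 5 in the clusters led by *Igkc*, *Pi16* and *Ccl19* alone, 17 on the male slide and 1 to 50 with a section left out. Without the slide covariate edgeR called 0, with 27 at an unadjusted p under 0.05. Between buccal mucosa and Control 79 were called, 37 and 23 in the clusters led by *Pi16* and *Angptl1* alone, 119 without buccal sections 3 and 6 and 39 to 145 with a section left out. Near epithelium in skin 89 were called, 52 with transcripts over the nucleus, 57 without the female PITX1+ sections and 59 to 86 with a section left out. In buccal mucosa 97 were called, 63 at 100 µm and 65 to 152 with a section left out. Near muscle in skin 29 were called, 55 with DESeq2, 13 over the nucleus, 88 with 60 clusters, 66 at 25 µm, 4 at 100 µm and 18 to 34 with a section left out. In buccal mucosa 11 were called, 6 over the nucleus, 1 with at least 20 transcripts per cell, 3 with 30 clusters, 45 with 60, 72 at 25 µm, 1 at 100 µm, 28 without buccal sections 3 and 6 and 2 to 25 with a section left out. In wounds 89 were called, and 53 to 105 with a section left out. Over all cells 67 were called between conditions, 8 without the slide covariate and 13 to 85 with a section left out. On the male slide edgeR called 0, with 66 at an unadjusted p under 0.05. Between tissues 125 were called over all cells, 196 without buccal sections 3 and 6 and 74 to 178 with a section left out.

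Leaving aside differences near muscle and over all cells that had not passed, which were not followed, signs turned only for other differences that had not passed. Between conditions these were *Col5a1* (-0.01 in the *Igkc* cluster, -0.15 on the male slide), *Col6a1* (-0.01 in the *Pi16* cluster), *Lum* (0.20 without the slide covariate) and *Fn1* (-0.10 on the male slide). With a section left out *Col1a1* ran from -1.15 to 0.09 and *Col5a1* from -0.19 to 0.53. Between buccal mucosa and Control, *Col5a1* turned to -0.15 with DESeq2, -0.12 without a filter, -0.03 with any quality, -0.10 with at least 20 transcripts, -0.25 and -0.06 with 30 and 60 clusters, -0.22 without the *Igkc* cluster and -0.54 and -0.34 in the *Pi16* and *Angptl1* clusters. *Col6a1* turned to -0.08 with 30 clusters, -0.08 without *Igkc*, and -0.51 and -0.13 in those clusters. *Tnxb* turned to -0.05 with DESeq2, -0.22 and -0.00 with 30 and 60 clusters, -0.20 without *Igkc*, and -0.61 and -0.23 in those clusters. *Fn1* was 0.00 over the nucleus and *Postn* -0.82 in the *Pi16* cluster. With a section left out *Col5a1* ran from -0.37 to 0.89, *Col6a1* from -0.03 to 0.78 and *Tnxb* from -0.10 to 0.61. Near epithelium in skin, *Col1a1* turned to -0.26 at 25 µm. *Col5a1* turned to 0.12 with library size, 0.16 with 60 clusters and 0.20 at 100 µm, and *Lum* to 0.16, 0.16 and 0.42, with -0.18 to 0.05 when a section was left out. In wounds *Col5a1* turned to 0.06 with library size, and *Postn* ran from -0.17 to 0.35 with a section left out.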
